A study of Mus musculus with 8 samples.

Results

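Bone morphogenetic protein (BMP) signalling was examined through 10 genes, the ligand Bmp4, the receptors Bmpr1a and Bmpr2, the signal carriers Smad1 and Smad4, the inhibitory SMADs Smad6 and Smad7, and the target genes Id1, Id2 and Id3. For these names, every probe set with 1 of them as its single annotated symbol was taken, whatever its values, which gave 12 of the 12488 probe sets on the array, for 10 of 8252 named genes. Bmp4 and Smad1 had 2 probe sets each. The material came from C57/Bl6 mice at postnatal day 6, an age at which secondary septa divide the air spaces of the lung. In one group, tips of secondary septa had been lifted from frozen sections by laser capture, 10000 of them, from many mice of different litters. In the other, RNA came from pooled whole lung of the same age. No treatment or altered genotype is labelled in either group. The experiment was done 2 times with different litters, and each of the 4 RNA samples was hybridised to 2 Affymetrix arrays, so that there were 2 RNA samples and 4 arrays per group. Tips are part of whole lung, and both are mixtures of cell types.

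BMP ligands bind paired type I and type II receptor kinases, which phosphorylate receptor-regulated SMADs such as Smad1. These join the common partner Smad4, enter the nucleus and switch on genes that include Id1, Id2, Id3 and the inhibitory Smad6 and Smad7. Id proteins hold back transcription by binding E proteins, which are basic helix-loop-helix factors. In the developing lung Bmp4 is known as a signal of the distal buds and surrounding mesenchyme, and Bmpr2 is known for its role in the pulmonary vessels.

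The stretches upstream of 3 genes are printed here because Id2, Id3 and Smad6 are all textbook targets of the pathway and gave different results. Each is the 250 bases before the annotated start of transcription, 5′ to 3′ on the gene's strand, from RefSeq (GRCm38.p6), and 7 of the 10 members could be matched there. Capitals mark the letters GGCGCC and GTCT or AGAC, which SMAD complexes are known to bind, searched on both strands.
Id2 (chr12:25096093-25096342, minus strand): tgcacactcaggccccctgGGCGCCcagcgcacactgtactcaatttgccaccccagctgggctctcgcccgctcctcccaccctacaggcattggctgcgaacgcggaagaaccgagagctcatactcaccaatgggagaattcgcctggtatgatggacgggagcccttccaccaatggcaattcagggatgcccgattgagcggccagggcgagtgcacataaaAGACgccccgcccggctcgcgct
Id3 (chr4:136143572-136143821, plus strand): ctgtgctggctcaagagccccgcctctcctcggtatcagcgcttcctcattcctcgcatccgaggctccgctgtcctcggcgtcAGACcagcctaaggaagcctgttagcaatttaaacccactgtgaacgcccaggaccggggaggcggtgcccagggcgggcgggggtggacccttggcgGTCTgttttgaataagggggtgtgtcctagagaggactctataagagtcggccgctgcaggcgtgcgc
Smad6 (chr9:64022060-64022309, minus strand): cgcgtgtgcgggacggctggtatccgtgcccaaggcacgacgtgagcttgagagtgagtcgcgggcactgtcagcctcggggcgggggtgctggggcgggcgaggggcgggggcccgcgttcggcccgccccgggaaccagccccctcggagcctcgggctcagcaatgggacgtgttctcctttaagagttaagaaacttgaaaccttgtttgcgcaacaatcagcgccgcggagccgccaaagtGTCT
GGCGCC stood in 9.59% of all 32851 promoters over the same 250 bases, and GTCT or AGAC in 82.9%. Of the 3 stretches, GGCGCC was in that of Id2 alone, 231 bases before the start. GTCT or AGAC was in each of the 3, at 23 bases before the start in Id2, 166 and 68 in Id3 and 4 in Smad6. Among the other matched members, Bmpr1a and Bmpr2 held GGCGCC at 198 and 105 bases. A further motif, GCCGNCGC or its complement, was also searched. It stood in 6.89% of all promoters, in none of the 3 stretches, and among the matched members in Bmpr1a alone. Such matches describe the letters in this window and are no measure of binding.

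The values are signals on a linear scale that the authors had brought to a common level on every array. The background of an array was taken as the 95th percentile of the 19 controls that target bacterial or yeast RNA. Its level was 314 to 568 on lung arrays and 487 to 1244 on tip arrays, so that dim genes were less well measured in tips. The hybridisation controls, which are added in fixed amounts, had a median signal of 3865 to 9632 on lung arrays and 18178 to 54829 on tip arrays. The ratio of 3′ to 5′ signal, a sign of RNA length, was 1.95 to 5.49 in lung and 4.18 to 12.8 in tips for Gapdh, and 38.8 to 104 and 23.0 to 139 for beta-actin. The ratio of 3′ to middle signal separated the groups in opposite directions, with 0.794 to 1.07 in lung and 1.70 to 2.72 in tips for Gapdh, and 16.5 to 24.8 and 9.23 to 12.4 for beta-actin. The part of these differences in the results below was not tested. Differences are log2 values of tips minus lung, taken on the signal plus an offset of 150.09 and therefore understated for dim genes, with the standard error and n = 2 RNA samples per group. Adjusted p-values are those of limma over the 7453 probe sets that passed a filter on low signal. Of the 12 member probe sets 11 passed it, and that of Bmpr1a did not.

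Members of the pathway moved in both directions. Id2, Smad4 and Smad1 were lower in tips, Bmp4 at one probe set and Smad6 were higher under the scaling used here, and the others did not pass the threshold of 0.05. Of the 11 probe sets tested, 2 were called higher and 4 lower, where 14.5% of all probe sets were called higher and 13.7% lower. The median difference was -0.29 over these 11 and 0.35 over all tested. The 4 tip arrays lay wholly above the 4 lung arrays for 3 member probe sets and wholly below for 4, which holds for 24.1% and 18.0% of all probe sets. The direction was the same in both experiments for 10 of the 11, Id1 being the exception. For that count no share over all probe sets is given, so it cannot be read as a trait of the members.

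**Figure D1:**
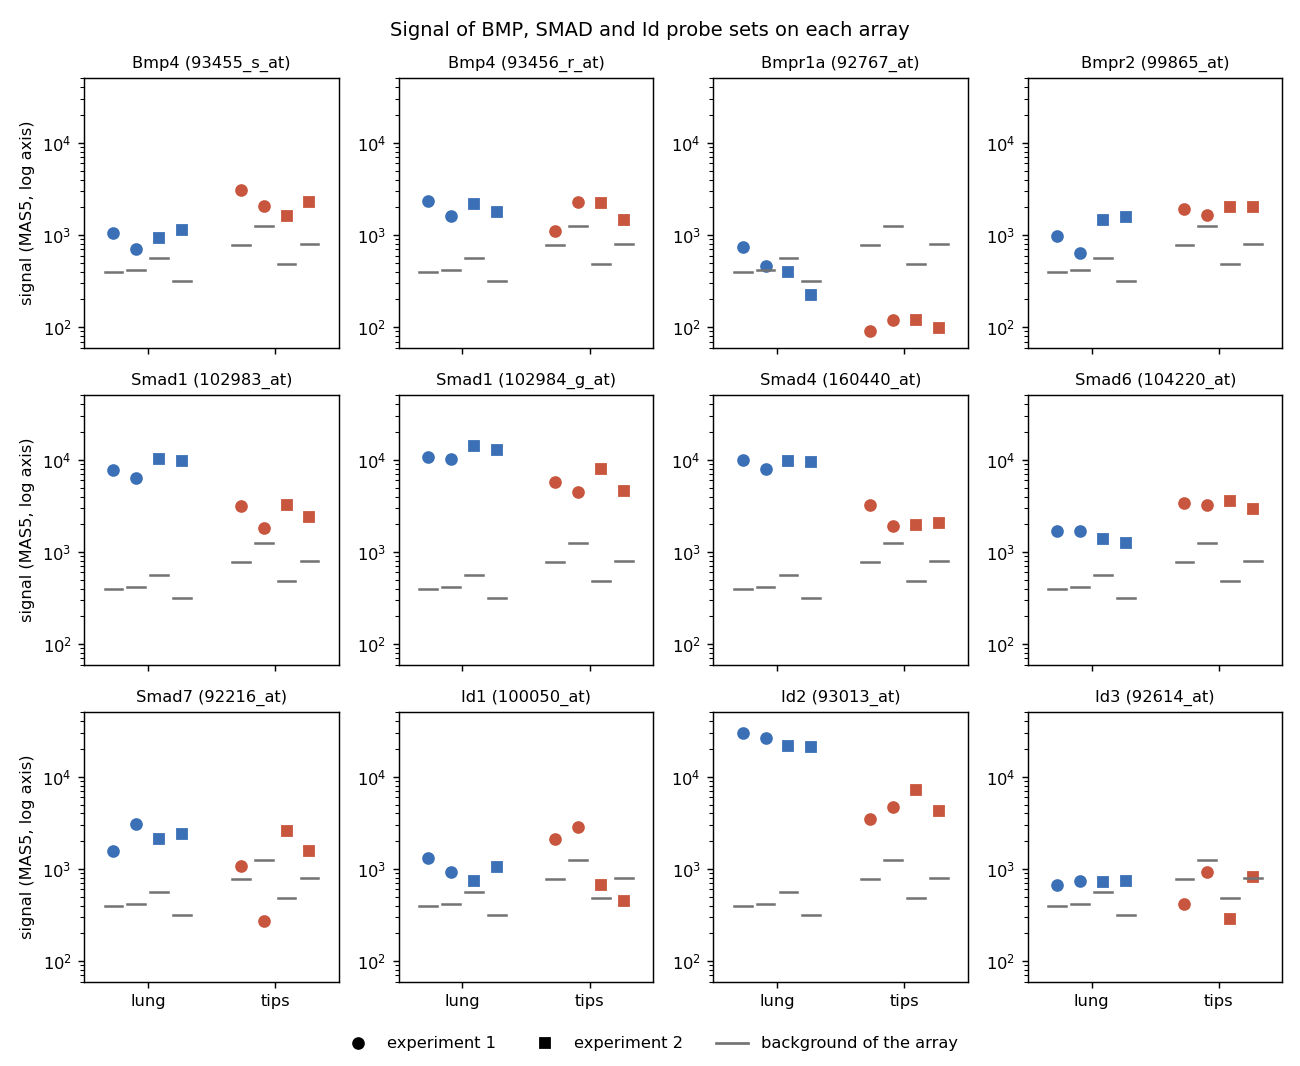
Signal of each of the 12 member probe sets on each array (log axis), with lung in blue, tips in red, circles for experiment 1, squares for experiment 2 and grey bars for the background of that array. Id2, Smad1 and Smad4 are lower on all 4 tip arrays than on any lung array, Smad6 is higher on all 4, and Bmpr1a lies under background on every tip array.

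Bmp4, the ligand, was read by 2 probe sets that did not give the same result. At 93455_s_at the lung arrays read 1054 and 709 in experiment 1 and 928 and 1136 in experiment 2, and the tip arrays 3051 and 2060.3, and 1608 and 2293. All tip arrays were higher than all lung arrays. The mean was 957 ± 107 in lung and 2253 ± 428 in tips (SD, n = 2), or 1.10 ± 0.35 in log2 units (limma adjusted p = 0.0439). Experiment 1 gave 1.39 and experiment 2 gave 0.82. At 93456_r_at lung read 2349.9, 1627, 2199 and 1774 and tips 1106, 2263, 2242 and 1459, and the groups overlapped. The difference there was -0.20 ± 0.32, with a 95% interval of -0.92 to 0.53 (adjusted p = 0.662). The endings of both names mark probes that can be shared with other transcripts or were chosen under relaxed rules. The increase at 93455_s_at did not pass with quantile normalization (0.74, adjusted p = 0.171), median centring (0.56, 0.282) or cyclic loess (0.76, 0.145), nor without the lung RNA of experiment 1 (1.00, 0.288), the lung RNA of experiment 2 (1.21, 0.197) or the tip RNA of experiment 1 (0.92, 0.0532). It passed under 6 of 19 alternatives, whose adjusted p ranged from 0.00873 to 0.288.

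Receptors showed no call. Bmpr2, the type II receptor, read 978, 635, 1468 and 1556 on the lung arrays and 1938, 1644, 1990.1 and 2004 on the tip arrays. The tips were the higher group throughout, but lung of experiment 1 lay well below lung of experiment 2. The log2 difference was 0.71 ± 0.39 with a 95% interval of -0.17 to 1.58 (limma adjusted p = 0.190), and 1.04 and 0.37 in experiments 1 and 2. Bmpr1a, a type I receptor, read 739, 457, 401 and 224 in lung and 91.3, 119, 120 and 98.8 in tips. It was above background on 2 of the 4 lung arrays and on none of the 4 tip arrays, so tips carry only an upper limit. It did not pass the filter, and no difference, fold or test is given.

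Smad1, which carries the BMP signal from receptor to nucleus, was lower in tips at both probe sets. At 102983_at lung read 7833, 6389, 10278 and 9737 and tips 3174, 1833, 3224 and 2380.3. The groups were well apart, and lung of experiment 2 was the brighter of the lung RNAs. The mean fell from 8559 ± 2048 to 2653 ± 211, or -1.64 ± 0.31 in log2 units (limma adjusted p = 0.00641). At 102984_g_at lung read 10732, 10227, 14187 and 12753 and tips 5787, 4531, 7913 and 4550.3, also with no overlap. That difference was -1.08 ± 0.30 (adjusted p = 0.0283). Both probe sets derive from the same transcript record and may share probes, so they are no independent measurements. The larger fall passed under 18 of 19 alternatives, with adjusted p from 0.000292 to 0.0793, and was lost without the lung RNA of experiment 2 (-1.40, adjusted p = 0.0793). The smaller one passed under 12, with 0.00331 to 0.198, and was lost with quantile normalization (-0.65, 0.164), with cyclic loess (-0.55, 0.198), without the lung RNA of experiment 1 (-1.26, 0.1004) and without that of experiment 2 (-0.90, 0.195).

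Smad4, the partner shared by the BMP and TGF-beta branches, was lower in tips under every setting tried. Lung arrays read 9962, 8001, 9780 and 9408, and tip arrays 3275, 1913, 1976 and 2055. Every tip array was below every lung array. The first tip array of experiment 1 was above the other 3. The mean fell from 9288 ± 433 to 2305 ± 409, or -1.97 ± 0.29 in log2 units (limma adjusted p = 0.00259), which is 3.92-fold lower on the offset scale. It was -1.77 in experiment 1 and -2.17 in experiment 2. The fall passed under all 19 alternatives, with differences from -2.51 to -1.71 and adjusted p from 3.23e-05 to 0.0351, and 5.61% of the tested probe sets had a lower difference.

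Of the inhibitory SMADs, Smad6 was called higher and Smad7 was not called. Smad6, which blocks BMP receptors and Smad1 by preference, read 1700.5, 1709, 1385 and 1244 in lung and 3366, 3220.05, 3605 and 2913 in tips. The tips were above lung throughout. The mean was 1510 ± 276 in lung and 3276 ± 24.2 in tips, or 1.05 ± 0.32 in log2 units (limma adjusted p = 0.0377), with 0.89 and 1.21 in the experiments. The call was lost with quantile normalization (0.86, adjusted p = 0.0932), median centring (0.51, 0.316) and cyclic loess (0.90, 0.0643), and with lung of experiment 1 (1.22, 0.153) or 2 (0.88, 0.253) left out. It held under 8 of 19 alternatives, with adjusted p from 0.00532 to 0.316, and the direction was the same under all of them. Smad7, which blocks both TGF-beta and BMP receptors, read 1578, 3071, 2123 and 2396 in lung and 1077, 272, 2589 and 1563 in tips. The groups overlapped. The second tip array of experiment 1, which had the highest background, was the lowest by far. The difference was -0.93 ± 0.50 with a 95% interval of -2.06 to 0.19 (adjusted p = 0.178). Experiment 1 gave -1.71 and experiment 2 -0.15, and without that array the value was -0.55 (adjusted p = 0.334). Without the tip RNA of experiment 2 it passed (-1.73, adjusted p = 0.00139), and without that of experiment 1 it was -0.14 (0.759).

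**Figure D2:**
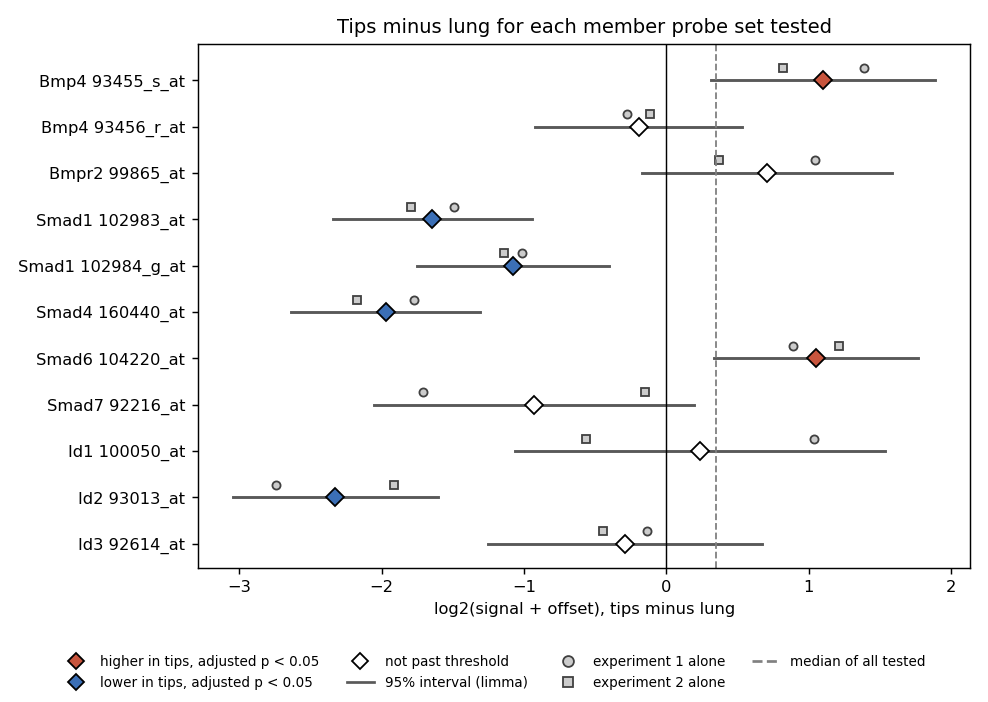
Log2 difference of tips minus lung for each of the 11 member probe sets tested (diamonds, red where called higher, blue where called lower, white otherwise), with the 95% interval from limma, the values of experiments 1 and 2 alone (circles and squares) and the median of all tested probe sets at 0.35 (dashed). Id2, Smad4 and Smad1 lie farthest to the left, and the experiments stand on opposite sides of 0 for Id1.

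Among the target genes, Id2 had the largest difference of all members. Lung arrays read 29938, 26352, 21594 and 20869, and tip arrays 3502, 4746, 7268 and 4209. The lowest lung array was far above the highest tip array. The mean fell from 24688 ± 4889 to 4931 ± 1141, or -2.33 ± 0.32 in log2 units (limma adjusted p = 0.00190), which is 5.01-fold lower on the offset scale. It was -2.74 in experiment 1 and -1.91 in experiment 2, and 3.54% of the tested probe sets had a lower difference. The fall passed under all 19 alternatives, with differences from -2.87 to -1.69 and adjusted p from 1.15e-05 to 0.0300. In such mixed samples fewer cells of a type and less RNA per cell cannot be told apart.

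Id1 went in opposite directions in the experiments. Lung read 1319 and 929 in experiment 1 and 743 and 1039 in experiment 2, while tips read 2092 and 2817, and 667 and 444. Both tip arrays of experiment 1 were above all lung arrays, and both of experiment 2 were below all of them, 1 of them under its background. Experiment 1 gave 1.03 and experiment 2 gave -0.56, together 0.24 ± 0.57 with a 95% interval of -1.06 to 1.53 (limma adjusted p = 0.776). Without the tip RNA of experiment 2 it passed (1.18, adjusted p = 0.0140), without that of experiment 1 it was -0.71 (0.155), and it was negative with quantile normalization, median centring and cyclic loess. Id3 was close to background: lung read 671, 749, 723 and 733 and tips 412, 935, 285 and 809, of which 1 tip array was above its own background. The tip arrays spread to both sides of the lung arrays. Its difference was -0.29 ± 0.42 with a 95% interval of -1.25 to 0.67 (adjusted p = 0.623). Of the 3 Id genes 1 passed, and whether Id2 differed from Id1 and Id3 was not tested.

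**Figure D3:**
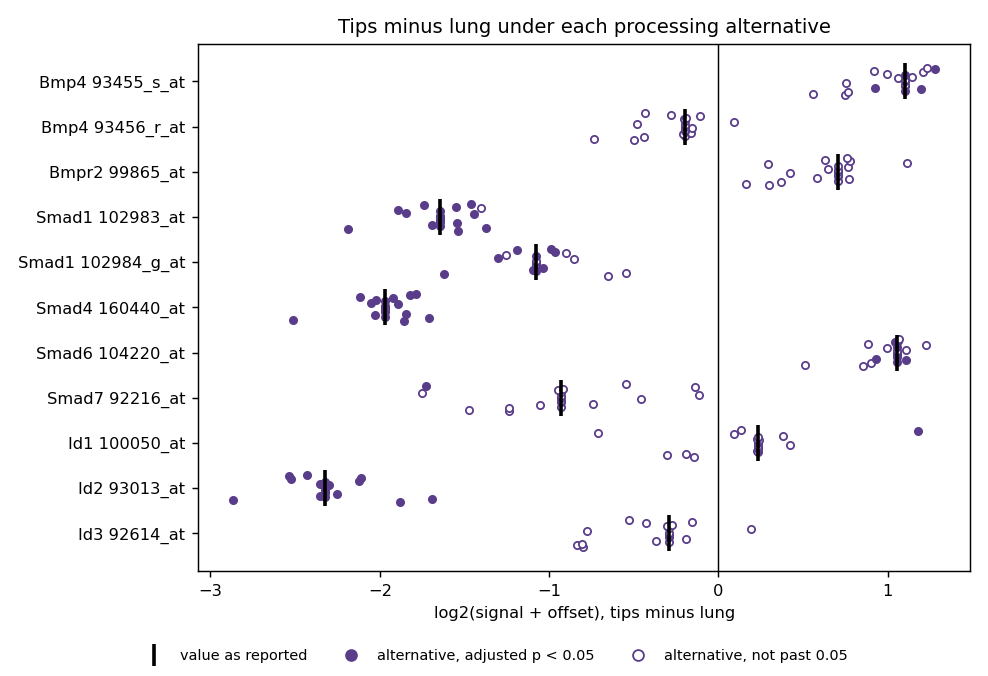
Log2 difference of tips minus lung for each of the 11 member probe sets tested, as reported (black bar) and under each processing alternative (points, filled where the adjusted p is under 0.05). Smad4 and Id2 are filled throughout, Bmp4 93455_s_at and Smad6 are filled under 6 and 8 of 19 alternatives, and points of Id1 lie on both sides of 0.

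The scaling bears on the calls in one direction more than in the other. Over all probe sets, 1084 were called higher and 1022 lower as scaled here, which is 28.3% of those tested. Quantile normalization gave 608 and 1020, centring on the median 271 and 1512, and cyclic loess 806 and 1156. Relative to the median of all tested probe sets, Id2 differed by -2.67, Smad4 by -2.32, Smad1 by -1.99 and -1.43, Smad6 by 0.70 and Bmp4 by 0.75 and -0.55. Of the 4 member calls that were lower, 3 also passed under each of these other 3 scalings, namely Id2, Smad4 and Smad1 at 102983_at. Of the 2 that were higher, 0 passed under all of them. At limma's unadjusted p under 0.05, 1 was higher with quantile normalization, 0 with median centring and 1 with cyclic loess. Of the calls over all probe sets, 853 of 1022 lower and 267 of 1084 higher ones passed under all 3 other scalings. The contrast between directions is thus not particular to the members.

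Other genes of the pathway came from a list of 69 names of ligands, receptors, extracellular regulators, SMADs and their regulators, target genes and Id partners. Of these, 51 had a probe set and 32 were tested, each on its brightest probe set. In all, 6 rose and 4 fell, and 22 did not pass, where 14.6% of all genes rose and 15.1% fell. Gdf5 and Bmp8a among the 6, and Tob1 among the 4, entered the test only through the group where they were high. The median difference was 0.02, against 0.31 over all 5642 genes. With the experiment as a replicate block 8 rose and 4 fell. With every signal under a common floor of 1244 set to it, 3 genes passed, Smad2, Tbx2 and Twsg1, and among the members Id2, Smad4 and Smad1 at 102983_at.

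On the ligand side 3 of 5 tested genes rose under the scaling used here. Bmp1, which despite its name is a metalloprotease that trims procollagens and releases BMPs from the antagonist chordin, had means of 852 ± 427 in lung and 7091 ± 4029 in tips. It rose by 2.80 ± 0.47 (limma adjusted p = 0.00426), and another probe set gave 1.42 ± 0.34 (0.0160). Gdf5 and Bmp8a, ligands of the same family, rose by 1.55 ± 0.43 and 1.54 ± 0.46 (adjusted p = 0.0288 and 0.0374). Both entered the test only through their tip signal, as the filter used the mean over both groups. Each exceeded background on 1 of 4 lung arrays, so that these sizes rest on lung signals mostly under background. With the common floor they shrank to 0.10 (adjusted p = 0.388) and 0.14 (0.374). Both calls were also lost with quantile normalization, median centring and cyclic loess. With lung of either experiment left out neither passed, at 1.76 and 1.35 for Gdf5 and 1.20 and 1.88 for Bmp8a, nor did Bmp8a without the tip RNA of experiment 1 (1.26). Bmp6 gave -1.16 ± 0.41 (adjusted p = 0.0634) and Bmp5 -0.63 ± 0.46 (0.310). Bmp6 passed as lower with quantile normalization (-1.60, limma adjusted p = 0.0280), median centring (-1.70, 0.0181) and cyclic loess (-1.67, 0.0166). However, it was above background on 1 of 4 tip arrays and gave -0.0038 (0.940) with the common floor.

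Of 5 receptor genes tested, Eng rose. It encodes endoglin, an endothelial co-receptor for BMP ligands, and went from 77511 ± 17117 to 299413 ± 16680, by 1.99 ± 0.50 (limma adjusted p = 0.0201). It did not pass with median centring (1.45, adjusted p = 0.0562), nor with lung of experiment 1 (1.74, 0.269) or 2 (2.24, 0.126) left out. Acvrl1, the endothelial type I receptor that acts with endoglin, gave -0.05 ± 0.36 (adjusted p = 0.930), with 0.54 and 0.19 at other probe sets. The type II receptor genes Acvr2a and Acvr2b gave -0.65 and 0.57 without passing, and Acvr2a gave 0.89 at another probe set.

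Extracellular regulators gave 1 call in 4. Twsg1, which binds BMPs together with chordin, fell from 8115 ± 1301 to 2507 ± 665, by 1.67 on the log2 scale (SE 0.31, limma adjusted p = 0.00645). It fell short with lung of experiment 1 (-1.83, adjusted p = 0.0510) or 2 (-1.51, 0.0734) left out. The antagonist gene Nog had a mean of 494 in lung and 517 in tips, was above background on 2 arrays of each group and was not tested. Grem1 read 95.7 in lung, under background on all 4 arrays, and 738 ± 617 in tips, where 1 of 4 arrays was above background. Bambi, a decoy receptor, was not analysed here.

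Of 6 further SMADs and SMAD regulators tested, 2 fell and 1 rose. Smad2, a signal carrier of the TGF-beta branch that also joins Smad4, fell from 4881 ± 63.2 to 796 ± 40.6, or -2.60 ± 0.32 in log2 units (limma adjusted p = 0.00143), and passed under all 19 alternatives. It was above background on 2 of the 4 tip arrays, and gave -1.82 with the common floor. Tob1, which represses BMP SMADs, gave -2.01 ± 0.50 (adjusted p = 0.0191), was above background on 1 tip array, and shrank to -0.49 (0.108) with the common floor. Tob1 entered the test only through its lung signal. It did not pass with lung of experiment 1 (-1.83, 0.212) or 2 (-2.19, 0.131) left out. Fkbp1a, a small protein that keeps type I receptors inactive, rose by 1.05 ± 0.30 (adjusted p = 0.0300), but not with median centring (0.51, 0.285) nor with lung of experiment 1 (1.16, 0.138) or 2 (0.95, 0.193) left out. Ski, a co-repressor of SMADs, gave 0.95 ± 0.32 (adjusted p = 0.0547; blocked by experiment, 0.0267). Nedd4l, another regulator on the list, gave 0.98 ± 0.35 (limma adjusted p = 0.0637) at its brightest probe set. Its other probe set was called higher (2.04 ± 0.48, 0.0157), but was above background on 1 lung array and entered the test only through its tip signal. Smad5, the closest relative of Smad1 on the list, had a mean of 270 in lung and 377 in tips, lay under background on all lung arrays and was not tested.

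Of 8 target genes tested, Tbx2 rose. This T-box factor, a gene of lung mesenchyme, went from 1932 ± 514 to 10988 ± 441, by 2.44 ± 0.31 (limma adjusted p = 0.00160), with 2.38 ± 0.33 at another probe set and -0.04 ± 0.47 at the dimmest. The brightest passed under all 19 alternatives. Msx1, a homeobox target, gave 1.02 ± 0.36 (adjusted p = 0.0618; blocked by experiment, 0.0369). Id4, the remaining Id gene, gave -0.52 ± 0.31 (0.223). Of 4 genes tested as E proteins or partners of them, Tcf12, an E protein bound by Id factors, fell from 24284 ± 1902 to 7091 ± 3206, by 1.84 on the log2 scale (SE 0.37, adjusted p = 0.00825), but did not pass without the lung RNA of experiment 1 (-1.77, 0.0715). Tcf3 and Tcf4, the other E proteins, gave -0.52 and -0.26 (0.322 and 0.561).

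**Figure D4:**
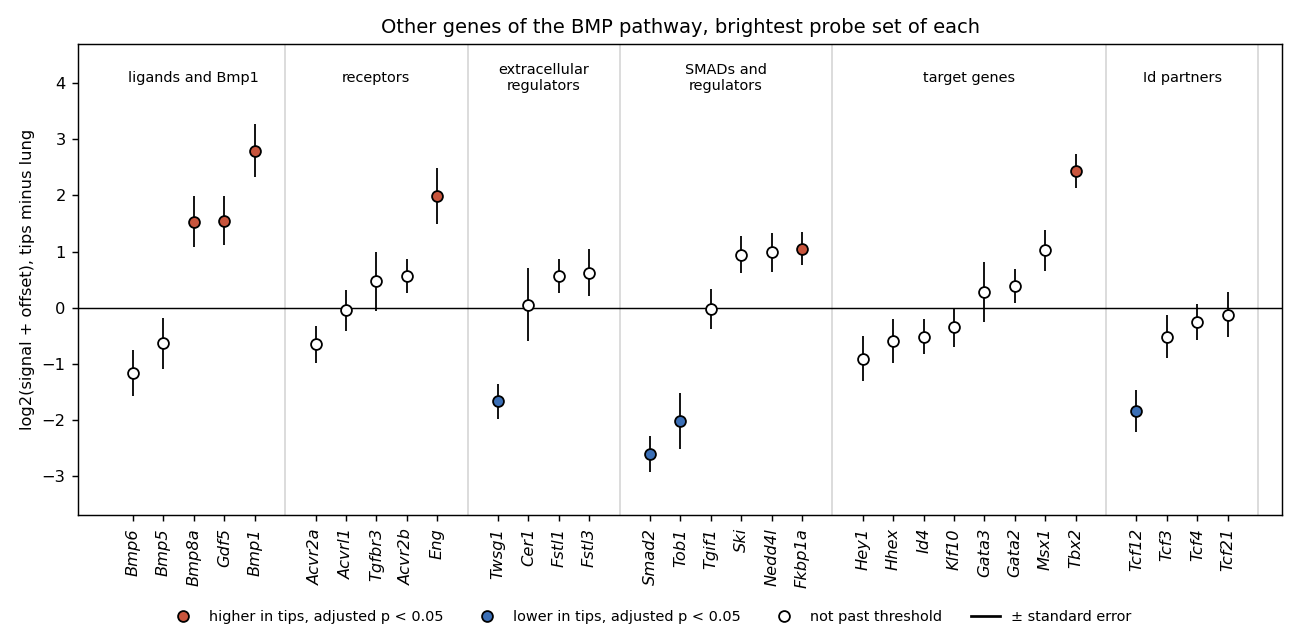
Log2 difference of tips minus lung, with its standard error, for the 32 other pathway genes tested, on the brightest probe set of each and grouped by role (red where called higher, blue where called lower). The 6 genes called higher are Bmp1, Gdf5, Bmp8a, Eng, Fkbp1a and Tbx2, and the 4 called lower are Smad2, Tob1, Twsg1 and Tcf12.

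Markers of the cell types in these samples also differed between the groups. Each gene was counted on its brightest probe set, and of all genes counted so 14.6% rose and 15.1% fell. Of 12 endothelial genes tested 6 rose and 2 fell, with a summed signal of 115258 to 161348 on lung arrays and 384334 to 397703 on tip arrays. Eng, counted above among the receptors, made up most of the tip sums, at 282676 to 311856, and read 47890 to 95836 on lung arrays. Without it 5 of 11 rose and 2 fell, and the sums were 60303 to 67368 and 73775 to 107905. Of 8 contractile genes 5 rose and 1 fell, with sums of 43612 to 78900.0 and 43895 to 55672. Of 8 fibroblast genes 2 fell and none rose at that probe set, with sums of 90613 to 115540 and 125431 to 133477. Other probe sets of Col1a2 and Col3a1 were called higher (1.29 and 1.12, limma adjusted p = 0.0122 and 0.0304), and a further one of Col3a1 gave 0.002. Of 3 type II cell genes 1 rose, of 3 type I cell genes 1 fell and of 3 airway genes 2 rose. Of 5 myeloid genes 2 fell, with sums of 42834 to 62802 and 22899 to 32525. Of 5 genes of dividing cells 4 fell, with 32634 to 52096 and 9238 to 14638. The remaining gene, Mki67, gave -1.01 (limma adjusted p = 0.0784) and was called higher at another probe set (1.37, 0.0443). No marker was listed at 0. Acta2, the smooth muscle actin that marks myofibroblasts at septal tips, had a mean of 17565 ± 10339 in lung and 17743 ± 3373 in tips (SD, n = 2). The means were 27130 ± 8140 and 102537 ± 5425 for the type II cell gene Sftpc. For the club cell gene Scgb1a1 they were 17323 ± 5712 and 53091 ± 33255. The part of these differences in the results for the BMP genes was not tested.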

How the data were processed

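Extraction used PicoPure and amplification RiboAmp, per the labels' protocols, which state the latter for all tip arrays and for 1 lung array, whereas the design text states it for both tissues. The deposited values are intensities of probe sets, which the authors computed with MAS5, as the submitters' processing notes state. Genome builds were not given in the sources used here. Their 2% trimmed mean lay between 1500.6 and 1501.2 on every array. Groups came from the titles, as the tips' description names whole lung.

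Arrays were rescaled to a trimmed mean of 1500.9, 150.09 (10%) was added and log2 taken. The 66 control probe sets and those under the 40th percentile of mean signal were left out, which left 7453. Arrays of an RNA were averaged. The comparison used limma 3.58.1 under R 4.3.3 (lmFit, eBayes with trend, Benjamini-Hochberg), with 2 residual and 7.05 prior degrees of freedom, and the procedure was tested on simulated data. The few RNA samples, and so arrays, limit the precision, with a median standard error of 0.40. P-values measure the spread among RNA samples from different litters, moderated by the spread over all probe sets tested. Symbols came from the probe annotation, updated by gene ID to GRCm38.p6 RefSeq.

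Members and lists were chosen with earlier results of these data known. Named were all member probe sets, the other pathway genes past the threshold, and Acvrl1, Eng, Smad5, Nog, Grem1 and Bambi. Further genes that did not pass at their brightest probe set (Bmp5, Bmp6, Acvr2a, Acvr2b, Ski, Nedd4l, Msx1, Id4, Tcf3 and Tcf4) were named after their values were seen. The same holds for the markers Col1a2, Col3a1 and Mki67. Per the design text the experiment number marks tissue processed in parallel and so pairs tips with lung. Deviations of the paired RNAs from their group means correlated at 0.0452. Alternatives were other scalings, offsets and filters, a common floor, the block, no trend, single arrays, RNA as a random block and each RNA left out. One, without array 2 of the tip RNA of experiment 1, was added after seeing the data.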

Additional observations from a re-analysis of the deposited data

Results flagged for a closer look

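Id1 moved in opposite directions in the experiments: tips minus lung was 1.03 in experiment 1 and -0.56 in experiment 2, and both array pairs of each experiment had the sign of their experiment. The difference between experiments was not tested, as each holds 1 RNA sample per group. Array 1 of the tip RNA of experiment 1 stood apart from the other tip arrays for Smad4, with a gap of 0.895 of the range, past Dixon's critical value at the 95% level. This was 1 of 24 groups of 4 arrays examined, arrays of the same RNA are not independent, and chance flags about 1 in 20 groups.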

How the results depend on the processing

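The falls of Id2 and Smad4 passed the threshold under all 19 alternatives, and that of Smad1 at 102983_at under 18. The experiment as a replicate block gave 2452 probe sets in place of 2106 and changed no call of a member. Member probe sets called higher numbered 2, but 0 by limma with quantile normalization, median centring, cyclic loess, no filter, the common floor, no trend, array 1 only, array 2 only or without array 2 of the tip RNA of experiment 1, and 1 with the 20th percentile filter. At an unadjusted p under 0.05 these were 1 with quantile normalization, 0 with median centring, 1 with cyclic loess and 2 under each of the others. Leaving out one RNA gave 0 to 3 higher, 2 to 5 lower, 3 to 15 pathway genes in place of 10 and 349 to 3324 probe sets in all. With 1 RNA left out, the lone RNA of its group is assumed to vary like the other group. With the common floor, set at 1244, there were 822 probe sets and 3 pathway genes among 6788 that were above it on at least 1 array. With array 1 only there were 1229 probe sets, and with array 2 only 5 pathway genes. Among the members, Id1 changed sign with quantile normalization (-0.15), median centring (-0.31) and cyclic loess (-0.19), and ranged from -0.71 to 1.18 with 1 RNA left out. Bmp4 93456_r_at (0.092) and Id3 (0.19) changed sign with array 2 only. Of the other pathway genes named, Acvrl1 changed sign under 4 alternatives, Tcf4 under 3, and Bmp5 and Tcf3 under 1 each. The cause was not tested. Signals under background limit what can be said of Bmpr1a, Id3, Bmp6, Smad2 and Tob1 in tips, of Bmp8a and Gdf5 in lung, and of Smad5 and Grem1 in both.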
